A study of Mus musculus with 6 samples.

Results

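The immunity-related GTPases (IRG proteins) were followed in RNA-Seq libraries of mouse CD4+ T cells through *Irgm1*, *Irgm2*, *Igtp*, *Iigp1*, *Ifi47*, *Tgtp1* and *Tgtp2*. These 7 genes were chosen by symbol, as named members of the family, and all 7 were found among the 24223 genes counted in each library. They were compared across Naive, Th17 and Th1 cells, with 2 libraries of each. Naive cells were CD4+CD44- T cells isolated with a CD4+CD62L+ kit from pooled lymph nodes and spleens of C57BL/6 mice 1 to 2 months old. Th17 and Th1 cells were obtained from such Naive cells in culture with anti-CD3 and anti-CD28 and were collected on the fifth day. All cultures held antibody against IL-4. Th1 cultures also received IL-12 and IL-2, whereas Th17 cultures received TGF-β, IL-6, IL-1β and IL-23 together with antibody against IFN-γ, so that this cytokine was neutralised in one kind of culture only. Naive cells were not cultured, and activation and polarization therefore cannot be told apart in a comparison with Naive.

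IRG proteins are large GTPases that interferons, above all IFN-γ, induce in many mouse cells, where they defend against intracellular bacteria and protozoa. IFN-γ binds the receptor chains Ifngr1 and Ifngr2, the kinases Jak1 and Jak2 pass the signal on, and transcription factors such as Irf1 bind the promoters of the target genes. The GKS proteins, named after 3 residues of the nucleotide-binding loop and here encoded by *Iigp1* (Irga6), *Tgtp1* and *Tgtp2* (Irgb6) and *Ifi47* (Irgd), load onto the vacuole that holds the pathogen. The GMS proteins, here encoded by *Irgm1*, *Irgm2* and *Igtp* (Irgm3), sit on the membranes of the cell itself and keep the GKS proteins inactive there. In T cells, *Irgm1* is known for a part in survival after activation.

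Among the 7 genes, 6 lie on chromosome 11 of GRCm38, the assembly also called mm10. *Irgm1* (48861968 to 48871683, minus strand), *Tgtp1* (48985327 to 48994172, minus strand), *Tgtp2* (49057194 to 49064206, minus strand) and *Ifi47* (49076587 to 49096974, plus strand) form a cluster in GENCODE vM21. *Igtp* (58199556 to 58207591) and *Irgm2* (58199618 to 58222782) lie further along on the plus strand. *Iigp1* lies outside both clusters.

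The promoters of these genes are shown because interferons act on their target genes through short DNA motifs. The promoter of *Iigp1* was left out and was not searched. RefSeq windows from 250 bases before to 50 bases after the start site (GRCm38.p6) were taken by symbol for the other 6 genes. They were searched on both strands for GAAA and GAAA separated by any 2 bases, the core of an interferon-stimulated response element (ISRE), and for TTCNNNGAA, the core of an interferon gamma activated site (GAS), which reads the same on both strands. The 80 bases around the ISRE-type match are given 5′ to 3′ on the strand of the gene, with both kinds of match in capitals.
*Irgm1*, chr11:48871411-48871490, minus strand: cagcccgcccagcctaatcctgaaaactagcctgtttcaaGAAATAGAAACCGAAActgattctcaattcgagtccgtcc
*Irgm2*, chr11:58214873-58214952, plus strand: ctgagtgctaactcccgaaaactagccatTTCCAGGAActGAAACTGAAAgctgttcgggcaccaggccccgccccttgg
*Igtp*, chr11:58199482-58199561, plus strand: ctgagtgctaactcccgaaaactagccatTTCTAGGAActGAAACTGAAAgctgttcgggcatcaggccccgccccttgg
*Tgtp1*, chr11:48992284-48992363, minus strand: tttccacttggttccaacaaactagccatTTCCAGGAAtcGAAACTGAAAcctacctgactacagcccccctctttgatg
*Tgtp2*, chr11:49064243-49064322, minus strand: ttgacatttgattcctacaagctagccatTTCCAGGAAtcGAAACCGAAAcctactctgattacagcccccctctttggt

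An ISRE-type match was present in 5 of the 6 windows and a GAS-type match in 4, whereas 3.44% and 8.3% of all 32851 promoter windows held them. In *Irgm2*, *Igtp*, *Tgtp1* and *Tgtp2* the GAS-type match stood just upstream of the ISRE-type match, which began 64, 34, 77 and 70 bases before the start site. Both kinds of match occurred together in 0.454% of all windows. *Irgm1* had overlapping ISRE-type matches, the first of them 30 bases before the start site, and no GAS-type match. The window of *Ifi47* held neither, and the promoter of *Iigp1* is not among these counts. The printed stretches of *Irgm2* and *Igtp* were identical at 78 of 80 positions, and those of *Tgtp1* and *Tgtp2* at 56. A match of letters is not evidence of binding, and near-copies of one promoter are not independent of each other.

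**Figure D1:**
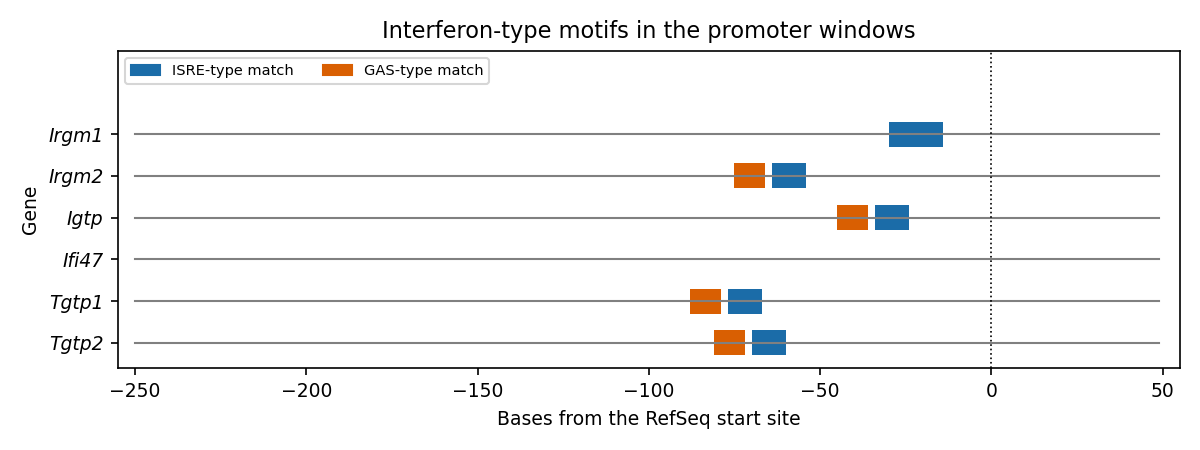
Positions of ISRE-type (blue) and GAS-type (orange) matches in the promoter windows of 6 IRG genes, with the distance in bases from the RefSeq start site on the x axis and 1 line per gene. In 4 genes the windows hold a GAS-type match directly before the ISRE-type match, while *Irgm1* holds ISRE-type matches only and *Ifi47* holds none.

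Reads had been counted per gene by the authors, and 17742158 to 69080017 reads per library were assigned to genes. In each cell type, replicate 1 was between 3.38 and 3.77 times as deep as replicate 2. Levels are given as CPM, counts scaled to the TMM-adjusted library total, for each library. Each IRG gene had at least 191 counts in every library, and in such bulk libraries fewer cells that express a gene and less of its RNA per cell cannot be told apart. The markers of Th17 and Th1 cells were high in the libraries so labelled. *Il17a* and *Il17f* had at least 526 and 769 CPM in Th17 and at most 0.541 and 0.479 CPM elsewhere, and the summed CPM of *Tbx21*, *Ifng*, *Il12rb2* and *Cxcr3* was 775 and 763 in Th1 and at most 93.8 elsewhere. The naive T cell markers *Ccr7* and *Lef1* were not particular to Naive, with 296 to 523 CPM and 239.6 to 566 CPM over the 6 libraries. Markers of other cells were counted as well. For 5 myeloid markers counted, summed CPM was 2469 and 3046 in Th17, mostly from *S100a8* and *S100a9*, against 18.6 to 38.9 in Naive and Th1. The NK cell markers *Ncr1* and *Klrb1c* summed to 18.2 and 11.4 CPM in Naive and to at most 1.44 CPM in the cultures. B cell markers summed to 15.1 CPM or less and CD8 T cell markers to 11.3 CPM or less in every library. Of the erythroid markers, 4 hemoglobin genes had no count, whereas *Alas2* had 3.02 CPM in Naive replicate 1 and at most 0.347 CPM elsewhere. The part of these cells in the IRG levels was not tested.

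All 7 IRG genes had their highest levels in Th1, and the differences were largest for *Igtp* and *Iigp1*. Both Th1 libraries lay above all 4 other libraries for each of the 7 genes, but without TMM scaling *Ifi47* overlapped, at 289.5 CPM in Th1 replicate 2 and 314 CPM in Th17 replicate 2. The summed CPM of the family was 2100 and 1956 in Th1, 607 and 706 in Th17 and 465 and 524 in Naive. Of the 7 genes, *Igtp*, *Iigp1* and *Tgtp1* were called higher in Th1 than in Naive, and *Igtp*, *Iigp1* and *Irgm1* were called higher in Th1 than in Th17. Calls required edgeR adjusted p < 0.01 and a log2 fold change (log2FC) beyond 1 in either direction, and SE is the standard error of the log2FC. Among all 13607 genes tested, 4.64% were called higher in Th1 than in Naive and 2.70% higher in Th1 than in Th17. Both Th1 libraries exceeded both Naive libraries for 27.6% of all genes, and both Th17 libraries for 31.5%. The median log2 fold change of the 7 genes was 1.32 in Th1 compared with Naive and 1.22 compared with Th17, against -0.02 and -0.03 over all genes tested. No IRG gene was called lower in Th1, or lay below without overlap, in either comparison. Of all genes, 2.81% were called lower than in Naive and 2.83% lower than in Th17, and 28.4% and 35.1% lay below without overlap.

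**Figure D2:**
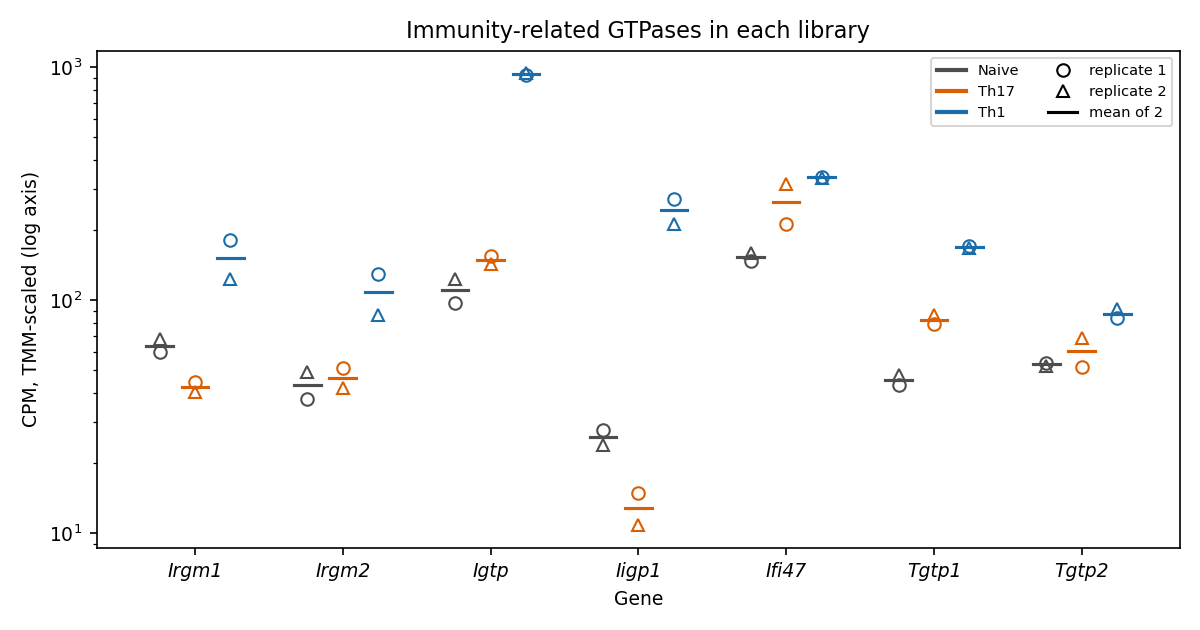
CPM after TMM scaling on a log axis for 7 IRG genes, with circles for replicate 1, triangles for replicate 2 and bars for the mean of 2 libraries, in Naive (grey), Th17 (orange) and Th1 (blue). Th1 libraries are the highest for every gene, and *Igtp* reaches 925 and 940.1 CPM there.

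Among the GMS genes, *Igtp* changed most. It had 96.7 and 123 CPM in Naive, 154 and 143 CPM in Th17, and 925 and 940.1 CPM in Th1. The Th1 libraries were close to each other and far above the rest, while the Th17 libraries lay only slightly above the Naive ones. The Th1 log2FC was 3.08 compared with Naive (SE 0.30, edgeR adjusted p = 0.000196) and 2.65 compared with Th17 (SE 0.29, edgeR adjusted p = 0.000546), which are 8.48-fold and 6.28-fold. Leaving out any single library, the first stayed between 2.91 and 3.27 and the second between 2.60 and 2.70. *Igtp* held 44.1% and 48.1% of the summed CPM of the 7 genes in the Th1 libraries, and 20.2% to 25.4% in the other 4.

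*Irgm1*, which encodes the GMS protein most studied for control of mycobacteria, had 59.6 and 68.0 CPM in Naive, 44.4 and 40.4 CPM in Th17, and 181 and 123 CPM in Th1. Naive lay between Th17 and Th1, without overlap between the groups. In Th1 compared with Th17 the log2FC was 1.84 (SE 0.28, edgeR adjusted p = 0.00274), a call that was lost without Th17 replicate 1 (1.903, edgeR adjusted p = 0.0254), without Th17 replicate 2 (1.78, edgeR adjusted p = 0.0293) or without Th1 replicate 1 (1.53, edgeR adjusted p = 0.0157). Compared with Naive it was 1.25 (SE 0.28, edgeR adjusted p = 0.0132), which was not called.

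*Irgm2* had 37.6 and 49.2 CPM in Naive, 50.9 and 42.0 CPM in Th17, and 129 and 86.7 CPM in Th1. Its Naive and Th17 libraries overlapped, and the Th1 libraries differed from each other more than those of *Igtp* did. The Th1 log2FC was 1.32 compared with Naive (SE 0.30, edgeR adjusted p = 0.0143) and 1.22 compared with Th17 (SE 0.29, edgeR adjusted p = 0.0226). Neither was called. In Th1, replicate 1 was 1.47 times replicate 2 for *Irgm1* and 1.49 times for *Irgm2*, whereas the ratio for *Igtp* was 0.984. Exons of *Igtp* and *Irgm2* overlap on the same strand over 162 bases in GENCODE, 8.01% of *Igtp* and 4.39% of *Irgm2*, because one *Irgm2* transcript begins beside *Igtp*, far upstream of the RefSeq start site whose promoter is shown.

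Among the GKS genes, *Iigp1*, on chromosome 18, had the widest range. It stood at 27.7 and 23.8 CPM in Naive, 14.8 and 10.8 CPM in Th17, and 273 and 213 CPM in Th1. The groups did not overlap, with Th17 lowest and Th1 highest. The Th1 log2FC was 3.23 compared with Naive (SE 0.30, edgeR adjusted p = 0.000161) and 4.24 compared with Th17 (SE 0.31, edgeR adjusted p = 0.000102), or 9.41-fold and 18.9-fold. By p-value it ranked 13 of 13607 genes in Th1 compared with Th17. Leaving out any single library, these changes stayed between 3.09 and 3.41 and between 4.04 and 4.48.

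*Tgtp1* had 43.0 and 47.6 CPM in Naive, 78.6 and 86.4 CPM in Th17, and 171 and 167 CPM in Th1, 3 levels that did not overlap. It was called higher in Th1 than in Naive, with a log2FC of 1.899 (SE 0.25, edgeR adjusted p = 0.000961). In Th1 compared with Th17 the log2FC was 1.03 (SE 0.24, edgeR adjusted p = 0.0197), which was not called. *Tgtp2*, its near-copy, had 53.7 and 52.3 CPM in Naive, 51.6 and 68.9 CPM in Th17, and 83.7 and 91.1 CPM in Th1. The Th17 libraries of *Tgtp2* overlapped those of Naive, and its Th1 log2FC was 0.72 compared with Naive (SE 0.26, edgeR adjusted p = 0.0879) and 0.54 compared with Th17 (SE 0.26, edgeR adjusted p = 0.171).

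Reads of *Tgtp1* and *Tgtp2* could be told apart only in part. Of all stretches of 150 bases, the read length, in the longest GENCODE transcript, 74.1% in *Tgtp1* and 71.7% in *Tgtp2* occurred identically in a transcript of another gene. The sharing genes were each other and, for *Tgtp1*, also *Gm12185*. The percentage was 0.854% for *Igtp*, shared with *Irgm2*, and 0 for the other 4 genes. With its default setting HTSeq leaves out a read that aligns equally well to several genes, but a read pair with one mate in a stretch that differs can still be assigned, and how much of each transcript was in use was not measured. When their counts were added, the pair had 96.8 and 99.9 CPM in Naive, 130.2 and 155 CPM in Th17, and 254 and 258 CPM in Th1. The summed counts were called higher in Th1 than in Naive, with a log2FC of 1.38 (SE 0.25, edgeR adjusted p = 0.00546), and were not called in Th1 compared with Th17 (0.85, SE 0.25, edgeR adjusted p = 0.0475).

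*Ifi47* had 147 and 160 CPM in Naive, 212 and 315 CPM in Th17, and 337 and 336 CPM in Th1. The Th17 libraries were spread over much of the distance between Naive and Th1. The Th1 log2FC was 1.14 compared with Naive (SE 0.29, edgeR adjusted p = 0.0238) and 0.35 compared with Th17 (SE 0.28, edgeR adjusted p = 0.403), with a 95% interval from -0.28 to 0.98 for the latter. Neither was called. Exons of *Ifi47* overlap those of *Gm12188* on the opposite strand over 4.29% and of *Olfr56* over 4.49% of their bases, and in these parts reads may have been assigned elsewhere or left out, depending on the strand setting of the counting.

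**Figure D3:**
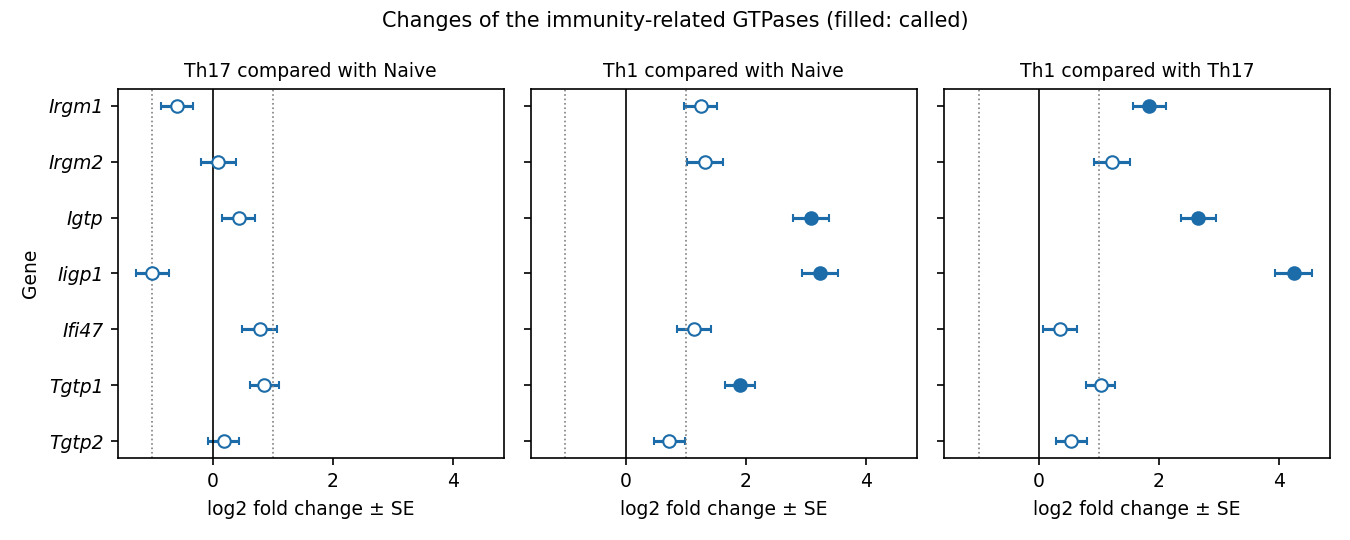
Log2 fold changes of 7 IRG genes on the x axis, with bars for the standard error, in Th17 compared with Naive, Th1 compared with Naive and Th1 compared with Th17. Filled points were called, and dotted lines mark log2FC of -1 and 1. *Igtp* and *Iigp1* are called in both comparisons of Th1, and none is called in Th17 compared with Naive.

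In Th17 compared with Naive, no IRG gene was called by edgeR or by DESeq2, and 3 had an unadjusted p-value under 0.05 in edgeR's test. Such values were common, since by rank at least 4244 of all 13607 genes tested were under this limit. Over all genes tested, 4.01% were called higher and 1.43% lower. Estimates for the IRG genes lay on both sides of 0 in this comparison. *Iigp1* and *Irgm1* had both Th17 libraries below both Naive libraries, with log2FC of -1.002 (SE 0.28, edgeR adjusted p = 0.0378) and -0.59 (SE 0.27, edgeR adjusted p = 0.161). *Tgtp1*, *Ifi47* and *Igtp* had both Th17 libraries above both Naive libraries, with log2FC of 0.86 (edgeR adjusted p = 0.0388), 0.78 (edgeR adjusted p = 0.0874) and 0.43 (edgeR adjusted p = 0.291). For *Irgm2* and *Tgtp2* the libraries overlapped, and 95% intervals of their log2 fold changes ran from -0.55 to 0.75 and from -0.39 to 0.76. The median of the 7 was 0.18, against -0.02 over all genes tested. Of all genes, 33.1% lay below Naive in Th17 without overlap and 32.4% above. The myeloid markers, at 2469 and 3046 CPM in Th17 against 38.9 and 18.6 CPM in Naive, moved with this comparison, and their part in it was not tested. The SD over the Th17 libraries was 72.8 CPM for *Ifi47*, at a mean of 264 CPM.

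Relative to exon length, *Ifi47* and *Igtp* were the leading members in Naive, with 62.0 and 54.4 CPM per kilobase of exon, and their libraries overlapped. *Tgtp2*, *Tgtp1*, *Irgm2* and *Irgm1* followed at 18.0, 14.1, 11.8 and 10.98 CPM per kilobase, of which *Irgm2* and *Irgm1* overlapped, and *Iigp1* was lowest at 4.43. In Th17 the order began with *Ifi47* at 107 CPM per kilobase and *Igtp* at 73.5, and *Iigp1* was again lowest at 2.201. In Th1, *Igtp* led with 461 CPM per kilobase, then came *Ifi47* with 136, *Tgtp1* with 52.7 and *Iigp1* with 41.7. Below them *Tgtp2*, *Irgm2* and *Irgm1*, at 29.8, 29.3 and 26.1 CPM per kilobase, did not differ beyond the spread of their libraries. Exon lengths join the exons of all GENCODE vM21 transcripts of a gene. For *Iigp1* and *Irgm1* they are 5823 and 5810 bases, whereas the longest transcripts have 3121 and 3832. For *Tgtp1* these lengths are 3205 and 2823, so the order of members may change with the length used. The levels of *Tgtp1* and *Tgtp2* per kilobase may lack reads from the stretches they share.

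Another 10 IRG-type genes were listed, of which 9 were found in the counts and tested. Of these, *Gm12250*, *Gm4951* and *F830016B08Rik* were called higher by edgeR in Th1 than in Naive and also than in Th17. Over all genes tested, 4.64% and 2.70% were called higher, and 2.81% and 2.83% lower. None of the 9 was called lower by edgeR, while DESeq2 called 1 lower in Th1 than in Naive, beside 807 of all 13607 genes tested. *Irgc1*, which was lowest in Th1, had 1 and 2 counts there, whereas Naive libraries had 49 and 34 and Th17 libraries 14 and 4 (edgeR adjusted p = 0.0159 compared with Naive). *Gm12250*, which encodes the GKS protein Irgb10, had 25.4 and 22.4 CPM in Naive, 29.8 and 26.8 CPM in Th17, and 165 and 89.5 CPM in Th1. Its Th1 log2FC was 2.41 compared with Naive (SE 0.33, edgeR adjusted p = 0.00131) and 2.17 compared with Th17 (edgeR adjusted p = 0.00269). *Gm4951*, a relative of *Iigp1*, stood at 23.9 and 14.7 CPM in Th1, whereas Naive libraries had 0.426 and 0.198 CPM and Th17 libraries 1.53 and 0.283 CPM (edgeR adjusted p = 0.000981 and 0.00362). *F830016B08Rik* had 407 and 64 counts in Th1 but 3 and 0 counts in Naive and 10 and 0 counts in Th17, too few for a fold. *Irgq*, a divergent member, was not called, with 21.8 and 27.2 CPM in Th1 and 25.8 and 33.0 CPM in Naive. Between Th17 and Naive, 0 of these 9 were called by edgeR or by DESeq2, and 1 had an unadjusted p-value under 0.05. By rank, at least 4244 of all 13607 genes tested were under that limit in this comparison. The 3 calls in Th1 compared with Th17 became 1 without Th17 replicate 1 and 0 without Th17 replicate 2 or Th1 replicate 1. The median log2 fold change of the list in Th1 was 1.01 compared with Naive and 1.36 compared with Th17, also with genes at the limit of 3 counts set at their bound.

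Among 11 genes of IFN-γ signalling, 4 were called higher and 1 lower in Th1 than in Naive, beside 4.64% and 2.81% of all genes tested. In Th1 compared with Th17, 4 were called higher and 1 lower, beside 2.70% and 2.83%. The latter 4 became 0 without either Th17 library, 2 without Th1 replicate 1 and 1 without Th1 replicate 2. The median log2FC was 0.82 and 1.28. In Th17 compared with Naive, 4.01% of all genes were called higher and 1.43% lower. Between Th17 and Naive, *Ifng* and *Ciita* were called higher, 2 genes that became 1 when any one Naive or Th17 library was left out. *Ifng*, the ligand, had 177 and 157 CPM in Th1, 64.6 and 48.7 CPM in Th17 and 4.55 CPM in both Naive libraries. Its log2 fold change was 5.19 in Th1 (edgeR adjusted p = 1.58e-05) and 3.64 in Th17 (edgeR adjusted p = 7.75e-05) compared with Naive, and 1.56 in Th1 compared with Th17 (edgeR adjusted p = 0.0045). *Ifng* was thus called higher in Th17 than in Naive. No IRG gene was called there, though *Tgtp1*, *Ifi47* and *Igtp* lay above Naive without overlap and *Iigp1* and *Irgm1* below. A link between *Ifng* and the IRG levels was not tested. The receptor chains went in opposite directions in Th1 compared with Naive. *Ifngr1* had a log2FC of 2.62 (edgeR adjusted p = 0.000926), whereas *Ifngr2* stood at 2.60 and 7.21 CPM in Th1 and at 35.3 and 49.7 CPM in Naive, a log2FC of -3.16 (edgeR adjusted p = 0.00202).

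*Irf1*, a transcription factor of the pathway, had 170 and 211 CPM in Naive, 166 and 154 CPM in Th17, and 297 and 349 CPM in Th1. It was called in neither comparison of Th1, with log2FC of 0.76 compared with Naive (edgeR adjusted p = 0.0819) and 1.02 compared with Th17 (edgeR adjusted p = 0.031). *Irf8* and *Socs1*, an interferon-induced factor and an inhibitor of Jak kinases, were called higher in Th1 in both comparisons, with log2FC of 1.64 and 2.75 compared with Naive and 2.36 and 1.84 compared with Th17. *Nlrc5*, the activator of MHC class I genes, was called for Th1 against Th17 at a log2FC of 2.01 (edgeR adjusted p = 0.00881), and was not called compared with Naive (0.82, edgeR adjusted p = 0.1796). *Ciita*, the activator of MHC class II genes, was called higher in Th17 than in Naive, with 6.84 and 4.58 CPM against 0.866 and 0.396 CPM. Myeloid markers, whose part in this was not tested, were also high in Th17.

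The guanylate-binding proteins are another family of interferon-induced GTPases that act at pathogen vacuoles. Of 11 *Gbp* genes, 5 were called higher in Th1 than in Naive and 5 than in Th17, beside 4.64% and 2.70% of all genes. *Gbp2*, *Gbp3*, *Gbp5* and *Gbp7* were called in both comparisons, *Gbp11* in the first and *Gbp10* in the second. The first count became 3 without Naive replicate 1 or Th1 replicate 1. *Gbp2* had 2423 and 3315 CPM in Th1, 148 and 105 CPM in Th17 and 43.5 and 48.1 CPM in Naive. The median log2 fold change of the 11 genes in Th1 was 1.69 compared with Naive and 1.10 compared with Th17. In Th17 compared with Naive, edgeR called 0 of them, with 7 at an unadjusted p-value under 0.05, while DESeq2 called 2 higher and 1 lower. Among all 13607 genes tested, DESeq2 called 1047 higher and 670 lower there. Proteins of the ATG8 conjugation machinery, which mark the vacuole for IRG proteins and GBPs, were encoded by 10 genes listed, and 0 were called by edgeR or DESeq2 in any of the 3 comparisons. Unadjusted edgeR p-values under 0.05 were common among all 13607 genes tested. By rank, at least 4244 had one between Th17 and Naive, 3814 between Th1 and Naive and 3993 between Th1 and Th17. Of the 10 ATG8 conjugation genes, 4, 2 and 1 had one in these comparisons. Between Th17 and Naive, edgeR called 2 of them higher without the filter on low counts and 1 without Naive replicate 1. Their median log2 fold change there was 0.67, with 7 of 10 above Naive without overlap and 1 below, beside 32.4% and 33.1% of all genes. In Th1 the median of the 10 was 0.40 compared with Naive and -0.11 compared with Th17.

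**Figure D4:**
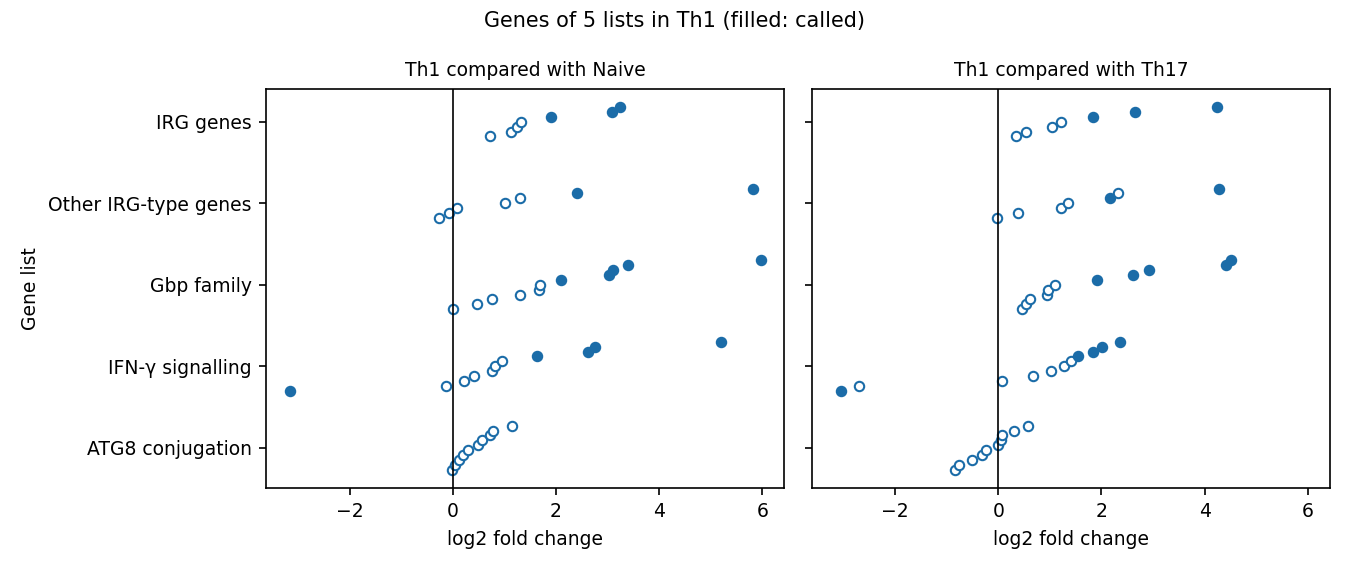
Log2 fold changes in Th1 compared with Naive (left) and with Th17 (right) on the x axis, 1 point per gene, for the 7 IRG genes, other IRG-type genes, *Gbp* genes, IFN-γ signalling genes and ATG8 conjugation genes. Filled points were called, and *F830016B08Rik* and *Irgc1*, with 3 counts or fewer in every library of a cell type, are left out. Called genes of both GTPase families lie to the right of 0, and no ATG8 conjugation gene is called.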

How the data were processed

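RNA-Seq libraries of Naive, Th17 and Th1 cells were compared, with 2 replicates each. Nothing in the labels ties a library to an animal, so p-values set a difference between cell types against the spread between these libraries. The authors mapped reads to mm10 with Hisat2 (2.2.1), and the deposited values are raw counts per gene made with HTSeq (0.13.5), without normalization. Their annotation release is not given in the sources used here. Methods state removal of duplicates and default HTSeq parameters, while the supplementary code counts with the reverse-strand option and shows no removal of duplicates. Per the labels, cDNA came from Smart-seq2 reverse transcription, which does not mark strand. Counting by strand would then leave out reads of one orientation, and which setting made the counts was not settled.

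The quasi-likelihood F-test of edgeR (4.0.16, in R 4.3.3) was fitted to the counts of all 6 libraries together, by cell type alone. Of 24223 genes, the 13607 passing filterByExpr were tested, with TMM factors from 0.862 to 1.09. All 7 IRG genes passed. Calls followed the study's thresholds, an adjusted p-value (Benjamini-Hochberg, over all genes tested) under 0.01 and a log2 fold change beyond 1 in either direction. Standard errors were derived from the F statistic, and log2 values of CPM had 2 as prior count. The scripts were tested on simulated data. Alternatives included DESeq2 (1.42.0), other scalings, filters and thresholds, the replicate number as a block, thinning, summed *Tgtp1* and *Tgtp2* counts, and leaving out each library.

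The IRG genes and the other lists were chosen with earlier results of these data known. The genes named are the 7 IRG genes, list members called in a comparison with *Ifng* and *Irf1*, and the 5 genes of most similar pattern. Some genes that meet this rule are not reported here. *Irgq*, *Gm12185*, *Gm12188*, *Olfr56* and *Irgc1* were added after their values were seen. Depth gives counting error only, since reads are not independent molecules.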

Additional observations from a re-analysis of the deposited data

Results flagged for a closer look

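The changes from Naive differed between Th1 and Th17 for 3 IRG genes, by edgeR's quasi-likelihood test of Th1 compared with Th17, which is the test of that difference. The log2 fold changes were 1.84 for *Irgm1*, 2.65 for *Igtp* and 4.24 for *Iigp1*, with edgeR adjusted p = 0.00274, 0.000546 and 0.000102. Both Th1 libraries were above and both Th17 libraries below the 2 Naive libraries for *Irgm1* and *Iigp1*, whereas for *Igtp* both cell types were above Naive. The call for *Irgm1* was lost without Th17 replicate 1, Th17 replicate 2 or Th1 replicate 1, with log2 fold changes between 1.53 and 1.903.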

How the results depend on the processing

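Directions of the 7 IRG genes held in all 3 comparisons under every alternative run, except 3 small differences between Th17 and Naive. These were *Irgm2* without Naive replicate 1 (log2 fold change -0.082) and without Th17 replicate 1 (-0.040), and *Tgtp2* without Th17 replicate 2 (-0.041). Over the 6 fits that leave out a library, *Irgm2* ranged from -0.082 to 0.293 and *Tgtp2* from -0.041 to 0.386. *Igtp* and *Iigp1* were called in Th1 in both comparisons under each alternative. The number of IRG genes called higher in Th1 than in Naive was 3. It was 6 with DESeq2, without the filter on low counts or at an adjusted p-value under 0.05, with *Irgm1*, *Irgm2* and *Ifi47* added. In that order, these alternatives called 1110 of 13607, 1287 of 17846 and 1188 of 13607 genes higher, in place of 631. In Th1 compared with Th17 the number of IRG genes was 3, and 5 under the same alternatives, with *Irgm2* and *Tgtp1* added. Over all genes tested, those alternatives called 925, 1188 and 1036 higher, in place of 367. At an adjusted p-value under 0.05, *Iigp1* was called lower in Th17 than in Naive, 1 gene in place of 0. Over all genes tested, 840 in place of 194 were called lower at that limit. A test against a log2 fold change of 1 lost *Tgtp1* in Th1 compared with Naive (adjusted p = 0.0108) and *Irgm1* in Th1 compared with Th17 (0.0312), and *Irgm1* was also lost there with library size alone (0.01046). Without each library in turn, 3 IRG genes were called in Th1 compared with Naive and 2 to 3 compared with Th17. Such a fit assumes that the lone library left in a cell type varies like the others. Library size alone moved the median log2 fold change of all genes to -0.26 and -0.24 in the comparisons of Th1 with Naive and Th17.

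Over the alternatives that keep all libraries, the *Gbp* genes called higher in Th1 than in Naive numbered 3 to 8 (5 in the report), the IFN-γ signalling genes higher in Th1 than in Th17 1 to 7 (4) and the other IRG-type genes 1 to 3 (3) against Naive and 1 to 4 (3) against Th17. Of the other IRG-type genes, 1 in place of 0 was called lower in Th1 than in Naive with DESeq2, without the filter, with the replicate block and at an adjusted p-value under 0.05. Over all genes, 545 higher and 194 lower in Th17 than in Naive became 268 to 1223 and 69 to 951, the 631 and 383 in Th1 compared with Naive became 334 to 1287 and 177 to 976, and the 367 and 385 in Th1 compared with Th17 became 154 to 1188 and 167 to 1076. With the replicate number as a block, 3 IRG genes were called higher in Th1 in each comparison and 0 were called in Th17 compared with Naive, and no IRG call changed. Same-numbered libraries were alike in depth, but their deviations had correlations of -0.23, 0.17 and 0.08 across genes, and they were not treated as pairs.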

Other observations

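The ratio of *Tgtp1* to *Tgtp2* differed between the cell types. Naive libraries had ratios of 0.801 and 0.911, Th17 libraries 1.52 and 1.25, and Th1 libraries 2.04 and 1.84, without overlap between the groups. Of the read-length stretches of these transcripts, 74.1% and 71.7% are shared, and the ratio was not tested. The smallest p-value that an exact two-sided permutation test can give with 2 libraries against 2 is 0.333.

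Over the 6 libraries, the log2 CPM of each IRG gene was compared with the mean of the other 6. Pearson's r was highest for *Igtp* (0.988) and lowest for *Ifi47* (0.705). Of 8833 other genes with a mean of at least 10 CPM, those most like the mean IRG profile were *Trappc1*, *Dcun1d3*, *Ccrn4l*, *Csf1* and *Pcgf5*, with r between 0.992 and 0.994. Among all these genes, 401 had r above 0.9. These correlations are a description over 6 libraries that share their cell types, and no p-value is given.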
